A study of Aspergillus nidulans with 38 samples.

Results

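The genes described here are 76 genes of *Aspergillus nidulans*, of the 9541 in the count tables, that lie in 9 clusters for secondary metabolites. They were chosen by AN number, with earlier results of these data known. The clusters are those named for orsellinic acid (AN7909 to AN7914, 6 genes), asperfuranone (AN1029 to AN1036, 8 genes), aspyridone (AN8408 to AN8415, 8 genes), emericellamide (AN2545 to AN2549, 5 genes), terrequinone (AN8513 to AN8520, 8 genes), asperthecin (AN6000 to AN6002, 3 genes), the *dba* benzaldehyde derivatives (AN7893 to AN7903, 11 genes), austinol (AN8379 to AN8384 and AN9246 to AN9259, 20 genes) and cichorine (AN6443 to AN6449, 7 genes). All 76 were found in the tables.

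The cultures were of the parental strain FGSC A1405 in YGV medium of low pH at 28 °C, grown for about 20 h from a 12 h seed culture. Micafungin, an echinocandin drug that inhibits the synthase of β-1,3-glucan in the fungal wall, was then added at 20 ng/ml, scaled to each g/kg of biomass. Mycelium was taken for RNA-seq at 0 min, then every 5 min up to 30 min, every 10 min up to 60 min, and at 75, 90 and 120 min. Each of 3 flasks, the biological replicates, was sampled in turn, and the 13 times gave 38 libraries since 15 min has 2. These libraries include no culture left without drug to the same age, so drug exposure and time in culture cannot be told apart.

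Filamentous fungi make secondary metabolites with sets of genes that sit side by side on a chromosome. Most clusters hold a backbone enzyme, such as a polyketide synthase or a nonribosomal peptide synthetase, which assembles the carbon skeleton, together with tailoring enzymes, transporters and often a transcription factor for the cluster. Many of these clusters in *A. nidulans* are known to be silent or nearly so in growing laboratory cultures. Emericellamides are cyclic molecules built from amino acids and a polyketide part, asperthecin is an anthraquinone pigment, austinol is a meroterpenoid, and terrequinone is made from an aromatic amino acid.

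Libraries held 5814843 to 10846567 reads counted on genes, with a median of 7964987.5. Normalized counts below are reads divided by a size factor for each library. They are not divided by gene length, so they compare a gene with itself between libraries and say nothing of 1 gene against another. In RNA from whole mycelium, fewer cells of a kind and less RNA per cell cannot be told apart.

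Read counts divided the 9 clusters sharply. The 5 emericellamide genes took 1405862 reads over all libraries, 0.461% of the reads on all genes, and the 71 genes of the other 8 clusters together took 57260 reads, 0.0188%. A gene was kept for testing when at least 2 libraries at every time point had a read. By this rule 29 of the 76 genes (38.2%) were kept, against 8290 of 9541 genes (86.9%) in the whole table. Of the other 47 genes, 33 had reads but too few, and 14 had no read in any library. Genes with no read made up 18.4% of the listed genes, against 2.06% of all genes. Read counts were seen in every library for 25 of the 76 genes.

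**Figure D1:**
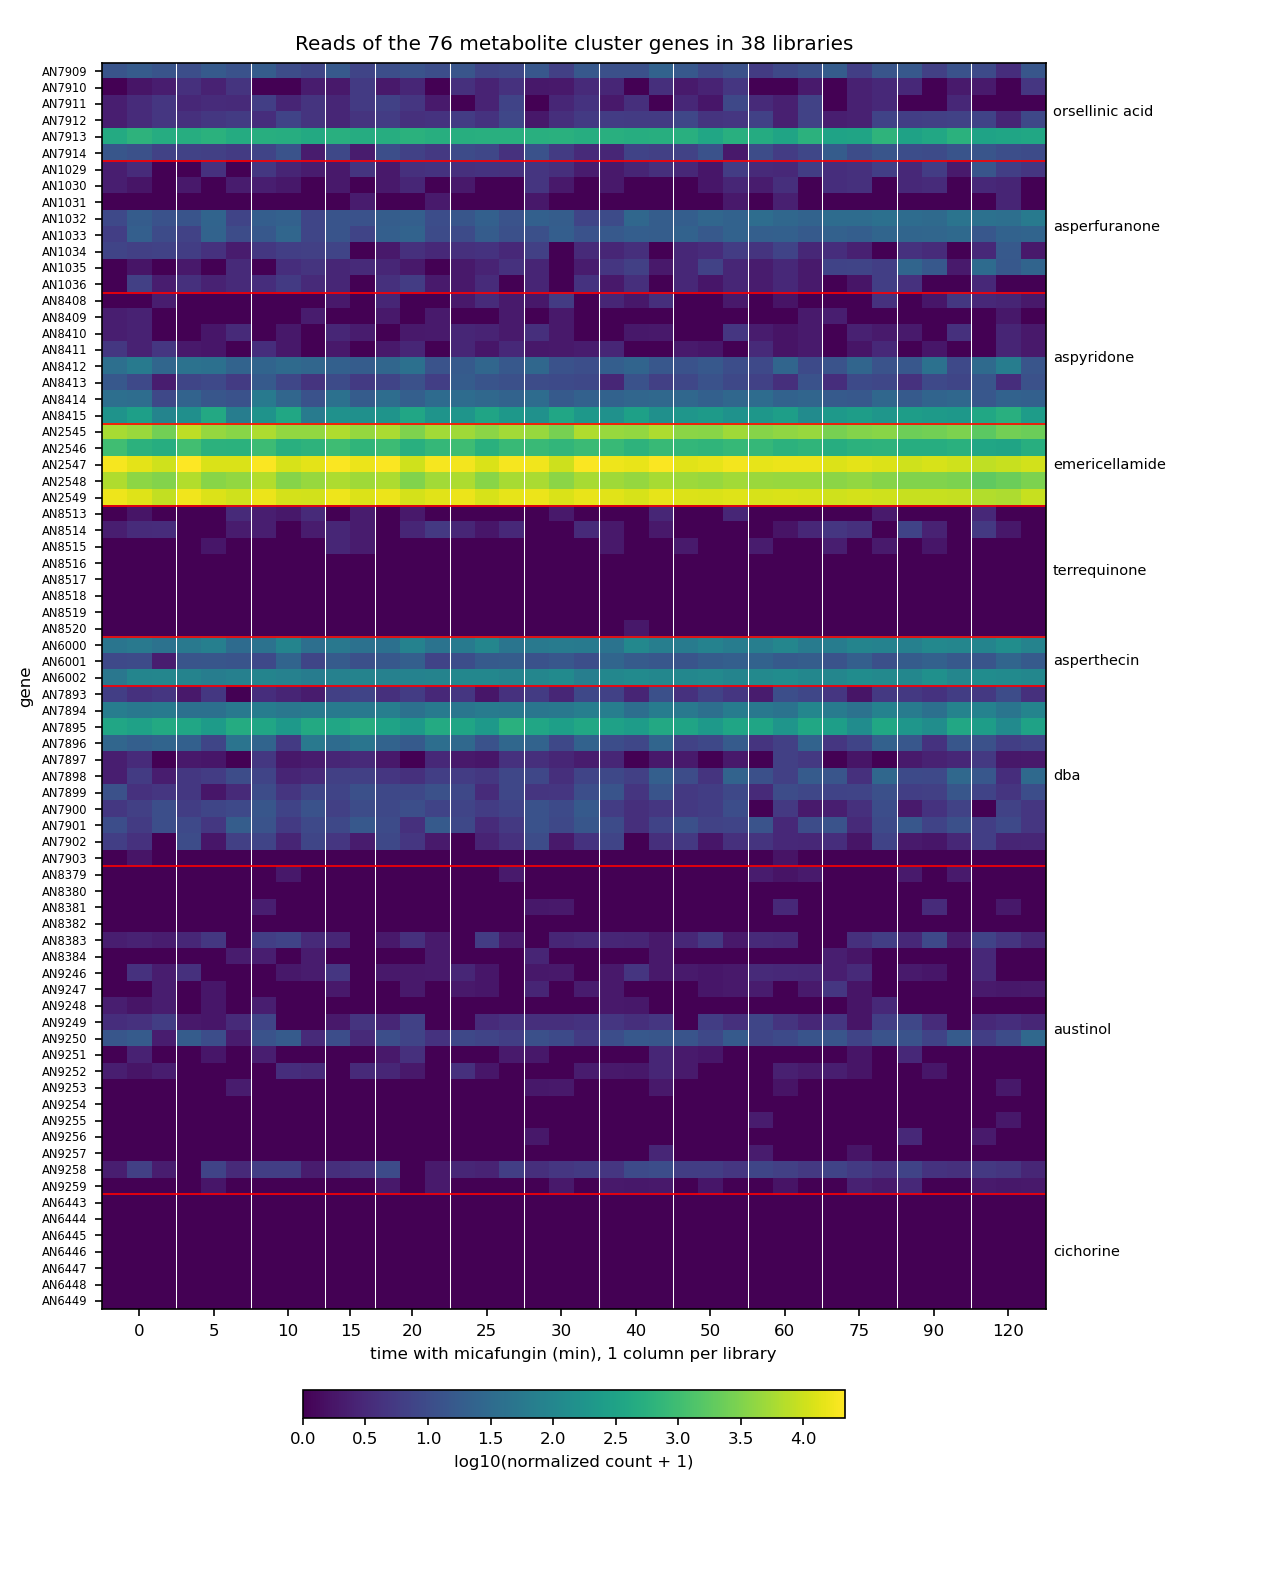
Heat map of the 76 genes (1 row each, grouped by cluster between red lines) in the 38 libraries (1 column each, ordered by time with micafungin in min). Colour gives log10(normalized count + 1). The 5 emericellamide genes form the bright band, AN7913, AN8415, AN7895, AN6000 and AN6002 stand at intermediate levels, and the terrequinone, cichorine and most austinol genes stay dark at every time.

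Within most clusters 1 or 2 genes held most of the reads. AN7913 held 94.9% of the 19677 reads of the orsellinic acid cluster, and 4 of its 6 genes were kept. AN8415 (*apdG*, an acyl-CoA dehydrogenase) held 79.5% of the 11184 reads of the aspyridone cluster, where 4 of 8 genes were kept. AN7895 (*cipB*, a protein with a zinc-binding alcohol dehydrogenase domain) held 73.4% of the 16315 reads of the *dba* cluster, where 9 of 11 genes were kept. Because counts are not divided by length, these shares are shares of reads and not of transcripts.

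The same clusters also held genes with very few reads. AN7910 had 56 reads in 28 libraries, AN8409 had 11 reads in 10 libraries, and AN7903 of the *dba* cluster had 2 reads in 2 libraries. AN1031 of the asperfuranone cluster had 8 reads in 6 libraries, and 2 of that cluster's 8 genes were kept, with 2070 reads in the cluster in all. The 3 asperthecin genes were all kept, with 7010 reads, of which AN6002 (*aptC*, an FAD-dependent monooxygenase) held 53.5%.

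The austinol genes lie at 2 places, on chromosomes V and VIII in the RefSeq annotation ASM1142v1, and both had few reads. The 6 genes from AN8379 to AN8384 had 122 reads in all, of which AN8383 held 77.0% (94 reads in 32 libraries). The 14 genes from AN9246 to AN9259 had 804 reads, of which AN9250 held 47.8%. A library had 7 to 42 reads over the 20 genes. AN9250 and AN9258 were kept, 15 genes had too few reads, and AN8380, AN8382 and AN9254 had none.

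No terrequinone gene was kept. The cluster had 78 reads in all, between 0 and 6 reads per library with a median of 2, and 6 libraries had none. AN8514 held 50 of these reads, AN8513 had 17, AN8515 had 10 and AN8520 had 1. The 4 genes AN8516 to AN8519 had no read.

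The 7 cichorine genes had no read in any library, AN6448 among them. A count of 0 in 305093705 reads allows a level of up to 0.00983 CPM (counts per 1e6 reads) for a gene (3 counts, counting error only). This limit speaks of expression only if the genes are present in this strain and their reads could be counted, which was not tested. The cluster was not alone in this. By AN number it lies inside an unbroken run of 72 genes from AN6415 to AN6486, all with 0 reads in all 38 libraries, with 28 of them before the cluster and 37 after it. The next longest run in the table is 4 genes, AN8516 to AN8519, and 125 genes with no read lie elsewhere. The 40 genes next to the run by number, 20 on each side, all had reads.

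In the gene order of the same annotation, 68 of these 72 genes are listed, all on chromosome I. They are the outermost genes of 1 end of that chromosome among the genes in the tables, and the first gene with reads after them is AN6414, which had 9 reads. The genes from AN6487 on, next to the run by number, therefore do not lie on its outer side. At the other 15 ends of the 8 chromosomes, the number of successive genes with no read was at most 3. The cichorine genes therefore share their 0 reads with their neighbours up to the chromosome end. The cause was not tested.

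**Figure D2:**
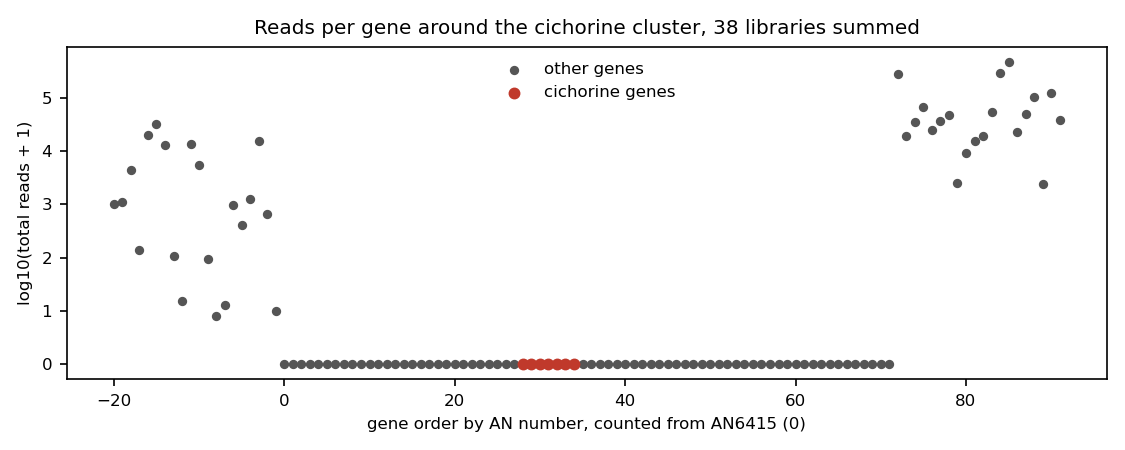
Total reads of each gene over the 38 libraries, as log10(reads + 1), against its place in the order of AN numbers counted from AN6415. The 7 cichorine genes (red) lie among 72 genes at 0 reads, and the 20 genes on either side of these 72 by number (grey) all have reads. The order by number is not that along the chromosome.

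The first comparison asked which of the 29 kept genes had changed after 20, 60 and 120 min of drug. At 20 min none passed the threshold (edgeR's quasi-likelihood test, adjusted p under 0.05 over 8290 genes, with the flask as a block), and no other gene of the table did either, so the share called was 0%. An unadjusted p under 0.05 was reached by 2 of the 29 genes at 20 min, AN6001 higher and AN8412 lower, beside 5.78% of all genes. At 60 min again no gene passed, and 4 of the 29 reached an unadjusted p under 0.05, beside 13.1% of all genes. DESeq2 called 0 of the 29 at both times, beside 36 and 335 of all 8290 genes at 20 and 60 min. An unadjusted DESeq2 p under 0.05 was found for 0 and 2 of the 29 at these times, beside 326 and 965 of all genes.

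At 120 min 1 of the 29 genes was called higher, AN8415, and 0 were called lower, beside 4.41% of all genes called, 3.21% higher and 1.21% lower. An unadjusted p under 0.05 was reached by 8 of the 29, of which 4 were higher and 4 lower, beside 26.5% of all genes. DESeq2 called 3 of the 29 higher and 2 lower, beside 782 and 404 of all 8290 genes. The normalized counts at 120 and 0 min did not overlap for 8 of the 29 genes, beside 33.2% of all genes. The median log2 fold change of the 29 was 0.07, with 16 above 0 and 13 below, and that of all genes was -0.01. The members' counts lay near those of the whole table. Without flask 1, and without flask 3, no gene of the whole table was called at 120 min, and 1584 and 1402 genes then stayed under 0.05 before adjustment.

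Of the 29 genes, 6 had a dynamic course (permutation p under 0.01 from a curve fitted to the fold changes over each flask's own 0 min library), beside 25.9% of all genes. They were AN8412, AN6000, AN1032, AN7895, AN2548 and AN7896. Averaged over the course, AN6000 and AN1032 stood above their 0 min level and the other 4 below it.

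**Figure D3:**
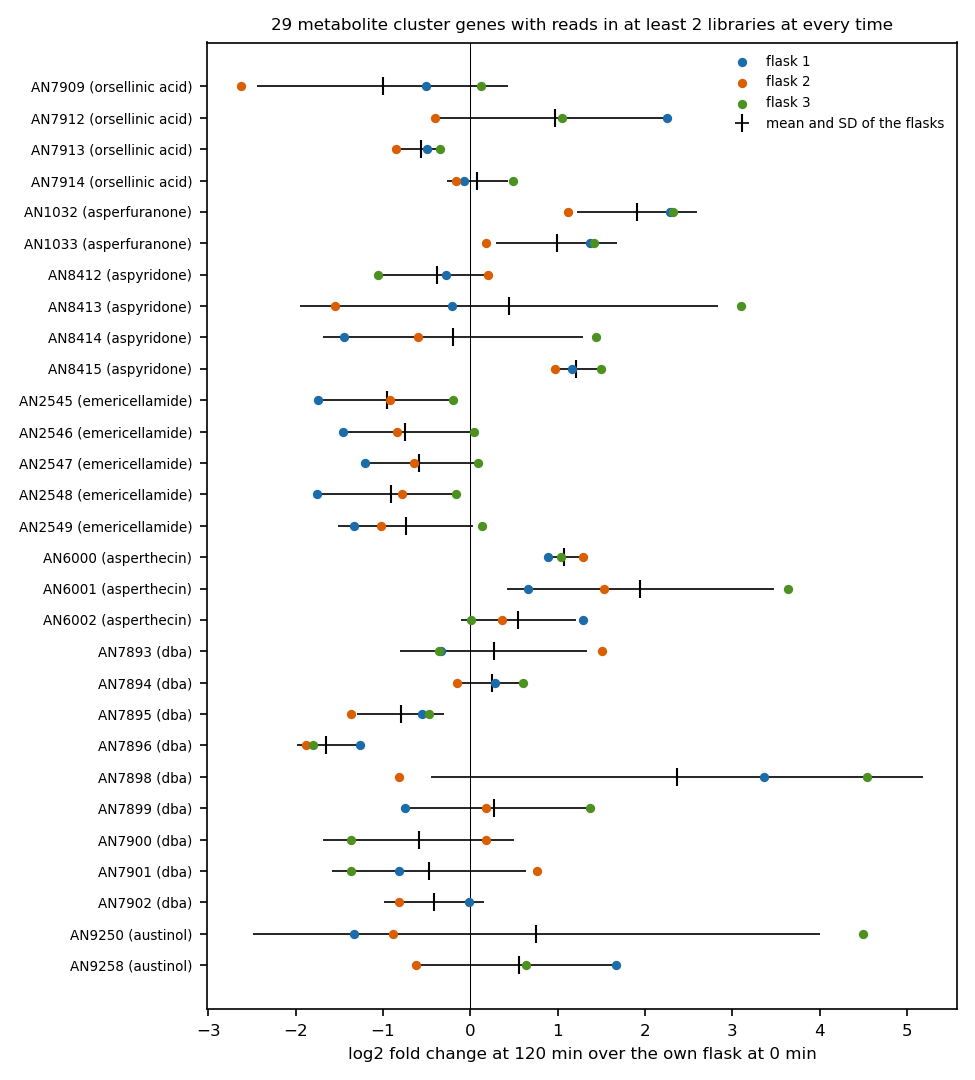
Log2 fold change at 120 min over the same flask at 0 min for the 29 kept genes, with a point for each flask and the mean and SD of the flasks. The 3 asperthecin genes and AN1032, AN1033 and AN8415 lie above 0 in every flask, and AN7896, AN7895, AN7913, AN2545 and AN2548 below 0 in every flask. AN7900 and AN7902 have 2 points because a library with 0 reads gives no ratio.

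AN8415 was the called gene of the aspyridone cluster. Its normalized counts at 120 min were 377, 537 and 249 in flasks 1, 2 and 3, against 169, 274 and 87.9 at 0 min. Each flask stood higher at 120 min than at 0 min, but flask 3 at 120 min lay below flask 2 at 0 min, so the groups overlap. The log2 fold change was 1.21 (SE 0.18, adjusted p = 0.0399 by edgeR's quasi-likelihood test), which is 2.31-fold. All 3 flasks had their highest value at 120 min, but the course before it differed between flasks. Flask 3 had already risen to 205 normalized counts at 25 min, fell to 121 at 60 min and was at 203 at 90 min. Flask 2 held 409 at 5 min and 228 at 90 min, and flask 1 held 181 at 25 min and 260 at 90 min. The mean log2 fold change was 0.21 ± 0.25 (SD, n = 3) at 60 min and 0.52 ± 0.74 at 90 min. The log2 fold change was 1.13 without the block, 1.21 without flask 1, 1.31 without flask 2 and 1.06 without flask 3, with adjusted p of 0.192, 0.152, 0.0466 and 0.141 in that order, and without flask 1 or flask 3 no other gene was called either. Over the alternatives tried it ran from 8.71e-05 with DESeq2 to 0.192.

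AN8412 (*apdA*), which encodes the hybrid polyketide synthase and peptide synthetase that builds aspyridone, was lowest in the middle of the course. At 0 min its normalized counts were 36.5, 59.3 and 26.4 in flasks 1, 2 and 3. At 60 min they were 8.13, 24.8 and 8.28, and at 120 min 29.9, 68.2 and 12.7. Every flask at 60 min lay below every flask at 0 min, and at 120 min flask 2 was above its start while flask 3 was still low. The mean log2 fold change was lowest at 50 min, at -1.71 ± 0.29 (SD, n = 3), and all 3 flasks were below 0 at 8 of the 11 later times with 3 flasks. The course was dynamic (permutation p = 6.11e-05). At 120 min the log2 fold change was -0.29 (SE 0.33, adjusted p = 0.590).

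The other kept aspyridone genes did not pass either test. AN8414 (*apdR*, the cluster's regulator) had 13.9, 22.4 and 20.5 normalized counts at 120 min, against 37.8, 34.0 and 7.53 at 0 min. It was lower in flasks 1 and 2 and higher in flask 3, with a log2 fold change of -0.33 (SE 0.60, adjusted p = 0.741), and the sign turned to 0.23 without flask 1. AN8413 (*apdF*, an efflux protein) had a log2 fold change of 0.11 (SE 0.81, adjusted p = 0.941). The 2 genes of this cluster that passed a test, *apdA* for the course and *apdG* at 120 min, did not pass the other. Over the 4 kept genes the Pearson correlation of log2 normalized counts across the 38 libraries had a median of 0.19 over 6 pairs.

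The 3 asperthecin genes all had log2 fold changes above 0 at 120 min, and none passed the adjusted threshold. AN6000 (*aptA*, the non-reducing polyketide synthase) had 87.7, 133 and 84.9 normalized counts at 120 min in flasks 1, 2 and 3, against 47.3, 54.5 and 41.4 at 0 min. The groups do not overlap. The log2 fold change was 1.08 (SE 0.21, adjusted p = 0.0684), and the course was dynamic (permutation p = 9.61e-05). The climb was gradual: the mean log2 fold change was 0.64 ± 0.14 at 60 min, 0.94 ± 0.25 at 90 min and 1.07 ± 0.20 at 120 min (SD, n = 3). Without flask 3 the course p was 0.0139.

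AN6001 had 12.8, 25.1 and 15.6 normalized counts at 120 min, against 8.10, 8.69 and 1.26 at 0 min. Its log2 fold change was 1.61 (SE 0.56, adjusted p = 0.162), and it stood above its 0 min level in all flasks at 10 of the 11 later times, although 0 min itself is a low count in flask 3. AN6002 had 125, 118 and 98.5 normalized counts at 120 min, against 51.3, 92.4 and 97.9 at 0 min. In flask 3 these last values are nearly equal, and the log2 fold change was 0.54 (SE 0.30, adjusted p = 0.306). The summed count of the cluster was 226, 276 and 199 at 120 min, against 107, 156 and 141 at 0 min.

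AN1032 of the asperfuranone cluster was 1 of its 2 kept genes. It had 39.6, 37.7 and 56.6 normalized counts at 120 min in flasks 1, 2 and 3, against 8.10, 17.4 and 11.3 at 0 min. The groups do not overlap, and the highest value of every flask was that at 120 min. The log2 fold change was 1.84 (SE 0.38, adjusted p = 0.0726), and the course was dynamic (permutation p = 0.000212). The adjusted p was 0.0437 without flask 2, 0.225 without flask 1 and 0.238 without flask 3, and without flask 3 the course p was 0.0171. AN1033 (*afoD*, an FAD-dependent monooxygenase) had 13.9, 22.4 and 23.4 normalized counts at 120 min, against 5.40, 19.8 and 8.79 at 0 min, with a log2 fold change of 0.87 (SE 0.41, adjusted p = 0.253). Each flask was higher at 120 min, but flask 1 at 120 min lay below flask 2 at 0 min.

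AN1035 of the same cluster was not kept, because it had almost no reads early in the course, and it is named after its values were seen. Its 3 libraries at 120 min had 69 reads in all, against 1 read at 0 min. The ratio was 62.9 after allowing for library size, with a 95% interval of 10.9 to 2519 that covers counting error only. The normalized counts were 31.0, 14.3 and 23.4 at 120 min in flasks 1, 2 and 3, against 0, 0.79 and 0 at 0 min. At 90 min they were 24.4 and 14.6 in flasks 1 and 2 and 1.02 in flask 3. When no filter on low counts was used, edgeR gave AN1035 a log2 fold change of 5.48 with an adjusted p of 0.0391.

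AN1029 also had few reads, 22 at 120 min against 4 at 0 min, a ratio of 5.01 (95% counting interval 1.70 to 20.0). Its normalized counts at 120 min were 12.8, 5.38 and 3.90 in flasks 1, 2 and 3, against 1.35, 2.37 and 0 at 0 min. The 3 flasks at 120 min all lay above the 3 at 0 min. AN1034 and AN1036 had 130 and 69 reads over all libraries and were not kept. AN1034 had 2.14, 15.2 and 0.976 normalized counts at 120 min, against 6.75, 5.53 and 6.28 at 0 min, and thus no common direction. The summed count of the 8 asperfuranone genes was 104, 98.7 and 108 at 120 min, against 23.0, 52.2 and 27.6 at 0 min, a mean log2 ratio of 1.69 ± 0.67 (SD, n = 3).

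**Figure D4:**
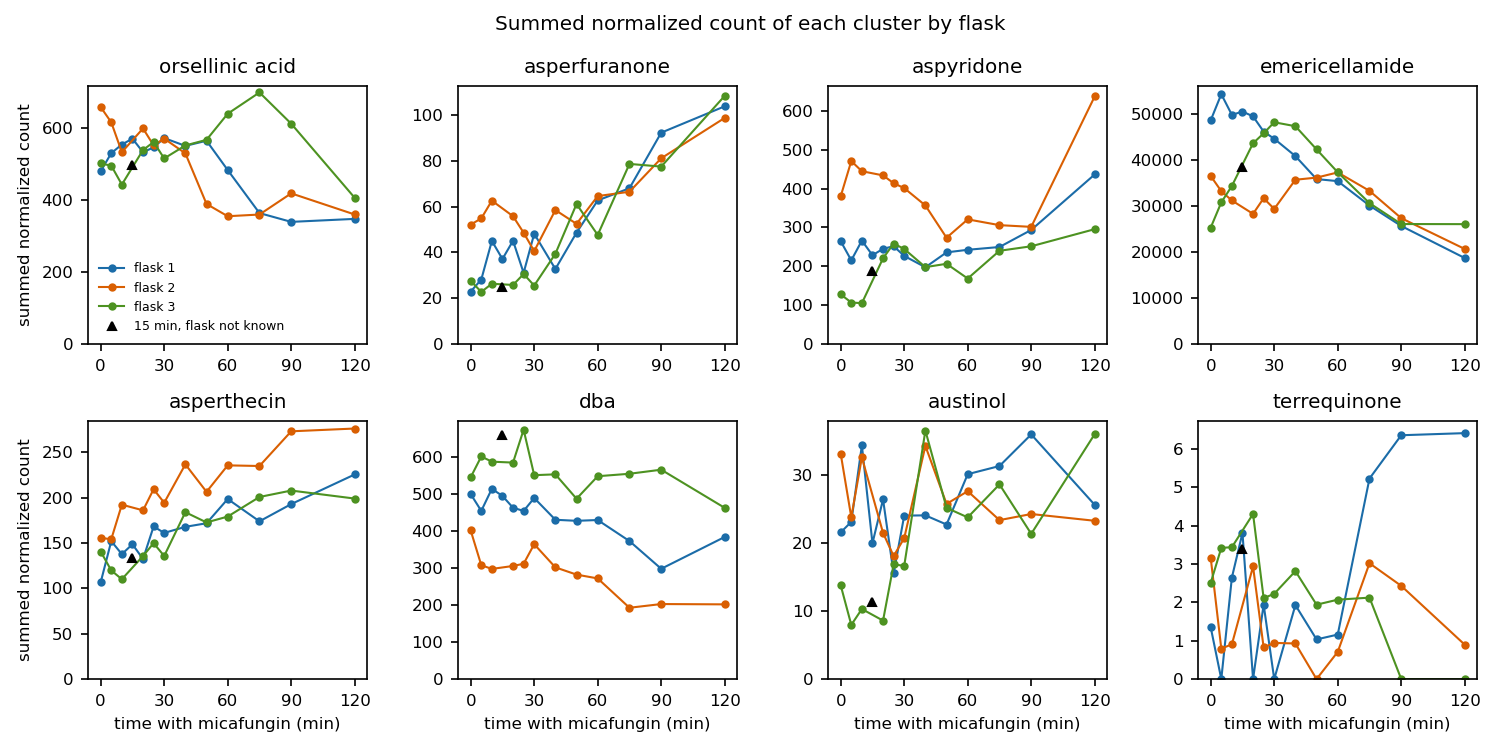
Summed normalized count of each cluster with reads against time with micafungin (min), with a line for each flask and a triangle for the second 15 min library, whose flask is not known. Each vertical axis starts at 0 and has its own scale. The asperfuranone, aspyridone and asperthecin sums at 120 min lie above their 0 min level in every flask, the orsellinic acid and *dba* sums below it, and the emericellamide sum lies below it in flasks 1 and 2 but not in flask 3.

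The emericellamide genes were the most read of the 9 clusters at every time, and their course differed from flask to flask. AN2547 (*easB*, a highly reducing polyketide synthase) had 8093, 9216 and 10982 normalized counts at 120 min in flasks 1, 2 and 3, against 18707, 14381 and 10336 at 0 min. It was lower in flasks 1 and 2 and slightly higher in flask 3, and its log2 fold change was -0.58 (SE 0.31, adjusted p = 0.295). AN2545 had 1733, 2551 and 2260 normalized counts at 120 min, against 5785, 4812 and 2592 at 0 min. These groups do not overlap, but the log2 fold change of -0.94 (SE 0.34) did not pass the test (adjusted p = 0.170).

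AN2548 (*easC*, an acyltransferase) was the gene of this cluster with a dynamic course (permutation p = 0.00313, and 0.0333 without flask 2). It had 1908, 2259 and 2988 normalized counts at 120 min, against 6458, 3897 and 3359 at 0 min, and the groups do not overlap. The log2 fold change was -0.89 (SE 0.35, adjusted p = 0.193). AN2549 (*easD*, an acyl-CoA ligase) had a log2 fold change of -0.74 (SE 0.35, adjusted p = 0.253), and AN2546, the gene with the fewest reads of the 5, had -0.74 (SE 0.32, adjusted p = 0.221). All 5 values lay below 0, from -0.94 to -0.58 with a median of -0.74, beside a median of -0.01 for all genes.

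The flasks began apart and came together. The summed count of the 5 genes at 0 min was 48697 in flask 1, 36592 in flask 2 and 25363 in flask 3, so that the highest flask stood 1.92 times above the lowest. At 60 min the ratio was 1.05, with sums from 35474 to 37399, and at 90 min it was 1.07. At 120 min the sums were 18751, 20721 and 26119, with flask 1 now lowest and flask 3 highest, and the ratio was 1.39. Fold changes over a flask's own 0 min library therefore carry the difference in starting level: the mean log2 ratio of the sum at 120 min was -0.72 ± 0.72 (SD, n = 3), with -1.38 in flask 1, -0.82 in flask 2 and 0.04 in flask 3. Such narrowing was not confined to these genes: the asperfuranone ratio was 2.27 at 0 min and 1.36 at 60 min. For *dba* and orsellinic acid it widened, from 1.36 and 1.37 to 2.02 and 1.80. Over all genes, libraries differed by 108 chi-square units for each degree of freedom at 0 min and 51.9 at 60 min.

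The time of the highest value also differed between flasks. In flask 1 all 5 genes were highest at 5 min and lowest at 120 min. In flask 3 they were highest between 25 and 40 min, where AN2547 reached 19923 normalized counts at 40 min and the summed count was 48273 at 30 min. In flask 2 the genes had no common peak: AN2545 and AN2549 were highest at 0 min, AN2546 at 30 min and AN2547 and AN2548 at 60 min, and all 5 were lowest at 120 min. Within a library the 5 genes moved together, with Pearson correlations of log2 normalized counts from 0.86 to 0.96 over 10 pairs and a median of 0.91 across 38 libraries, which share flasks and serial sampling. For the 9 kept *dba* genes the same correlations ran from -0.24 to 0.73 with a median of 0.26 over 36 pairs.

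**Figure D5:**
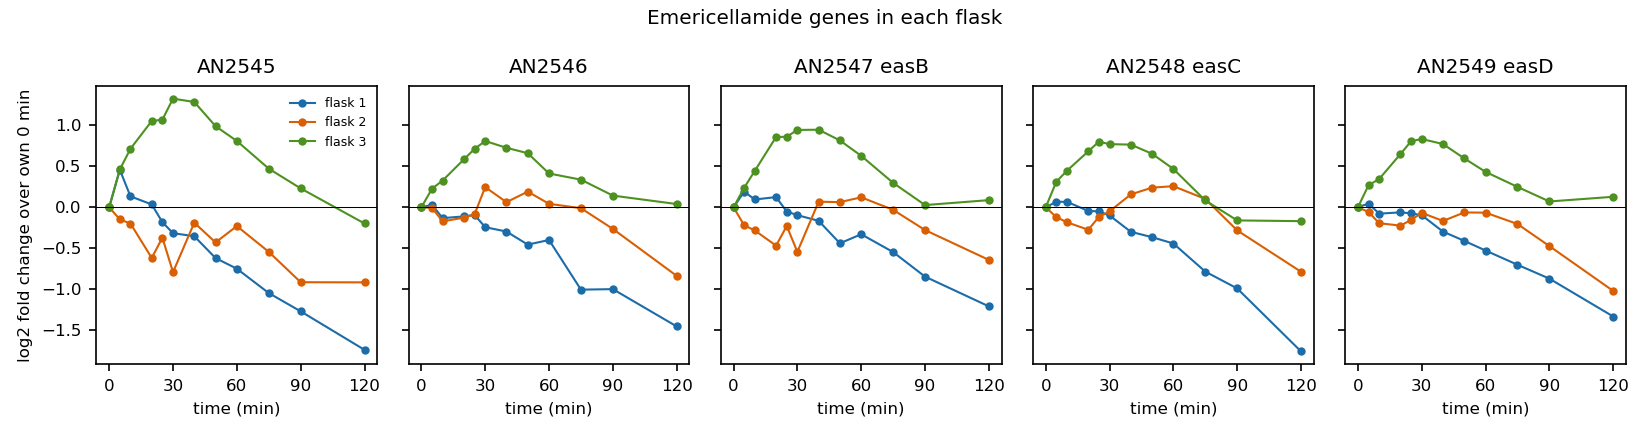
Log2 fold change of the 5 emericellamide genes over the same flask at 0 min against time with micafungin (min), with a line for each flask. Flask 3 rises to its peak between 25 and 40 min in all 5 panels while flask 1 is highest at 5 min in normalized count, and at 120 min the flasks keep the order flask 1 lowest and flask 3 highest.

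In the *dba* cluster, AN7896, annotated with DNA and zinc binding, had 10.7, 5.38 and 6.83 normalized counts at 120 min in flasks 1, 2 and 3, against 25.7, 19.8 and 23.9 at 0 min. The groups do not overlap and each flask was lower. Its log2 fold change was -1.61 (SE 0.34, adjusted p = 0.0741), and the course was dynamic at the threshold (permutation p = 0.00884). The course p stood above 0.01 when any flask was left out, at 0.0350, 0.0182 and 0.0354 without flasks 1, 2 and 3, and at 0.0117 with a pseudocount of 1. Flask 3 held 56.2 normalized counts at 10 min, above its start, when flask 2 held 4.53.

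AN7895 (*cipB*) had 251, 117 and 313 normalized counts at 120 min, against 369, 301 and 433 at 0 min. Each flask was lower at 120 min, with flask 3 at 120 min above flask 2 at 0 min. Its log2 fold change was -0.78 (SE 0.23, adjusted p = 0.129), and the course was dynamic (permutation p = 0.00188, and 0.0144 without flask 1). AN7898, which was named after its values were seen, had 13.9, 2.69 and 29.3 normalized counts at 120 min, against 1.35, 4.74 and 1.26 at 0 min. It was higher in flasks 1 and 3 and lower in flask 2, and its log2 fold change was 2.09 (SE 1.03, adjusted p = 0.264). Over the 9 kept *dba* genes 5 log2 fold changes lay above 0 and 4 below.

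The orsellinic acid cluster was carried by AN7913. It had 319, 345 and 372 normalized counts at 120 min in flasks 1, 2 and 3, against 451, 624 and 473 at 0 min. The groups do not overlap, but flask 3 stood at 662 at 75 min, above all its earlier values, when flasks 1 and 2 were at 328 and 341. Its log2 fold change at 120 min was -0.56 (SE 0.16, adjusted p = 0.119). AN7909 had 8.55, 2.69 and 13.7 normalized counts at 120 min, against 12.2, 16.6 and 12.6 at 0 min, lower in flasks 1 and 2, with a log2 fold change of -0.85 (SE 0.61, adjusted p = 0.411) that was -0.17 without flask 2. AN7914 (*orsE*, a dehydrogenase) had a log2 fold change of 0.05 (SE 0.37, adjusted p = 0.977).

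Both kept austinol genes were at low counts. AN9250 had 5.35, 8.97 and 28.3 normalized counts at 120 min, against 13.5, 16.6 and 1.26 at 0 min, and its log2 fold change was 0.28 (SE 1.06, adjusted p = 0.878). The direction differed between flasks. The summed count of the 20 austinol genes had a mean log2 ratio at 120 min of 0.37 ± 0.95 (SD, n = 3), which was -0.13 without flask 3.

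Genes known to act on many clusters at once, or on their building blocks, were read from lists. Of 14 regulators of secondary metabolism, among them *laeA*, *veA* and *mcrA*, all were kept and 0 were called at 120 min by edgeR's quasi-likelihood test. DESeq2 called 1 of them lower, beside 404 of all 8290 genes. Of the 14, 2 had an unadjusted edgeR p under 0.05, beside 26.5% of all genes, and 3 were dynamic, beside 25.9%. Their median log2 fold change was -0.11, and that of all genes -0.01. Of 8 genes for building blocks and enzyme activation, such as *accA* for acetyl-CoA carboxylase and *npgA* for the phosphopantetheinyl transferase, 0 were called by edgeR or by DESeq2, 0 had an unadjusted p under 0.05 with either, and 1 was dynamic. Their median was 0.06.

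Markers of other cell states were set beside these results. Of 8 conidiation genes, 7 were kept, 2 were called higher at 120 min, beside 3.21% of all genes, and 1 was dynamic. No conidiation gene was called without the flask block, without flask 1 or without flask 3. *brlA*, the regulator that starts conidiophore development, had 157, 245 and 50.7 normalized counts at 120 min in flasks 1, 2 and 3, against 12.2, 25.3 and 1.26 at 0 min (log2 fold change 3.66, SE 0.36, adjusted p = 0.0252 by edgeR, and 0.0782 without the block, 0.138 without flask 1 and 0.0801 without flask 3). *ivoB*, a gene of conidiophore pigment, had 51.3, 1274 and 30.2 at 120 min, against 4.05, 10.3 and 0 at 0 min (log2 fold change 6.32, SE 0.70, adjusted p = 0.0292 by edgeR). Its log2 fold change was 4.31 without flask 2, and its adjusted p was 0.101 without the block, 0.138 without flask 1 and 0.105 without flask 3. Both genes were higher at 120 min in every flask, and flask 2 held the highest values. DESeq2, which called 1186 of all 8290 genes at 120 min, gave adjusted p of 2.90e-13 for *brlA* and 2.31e-10 for *ivoB*.

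The other kept genes of this list were not called at 120 min (adjusted p from 0.409 to 0.859 by edgeR's quasi-likelihood test). Their log2 fold changes were 0.47 for *abaA*, 0.37 for *wetA*, 0.75 for *rodA*, -0.42 for *wA* and -0.08 for *yA*. None of the 8 conidiation genes was at 0 reads over the 0 min libraries. The summed normalized count of the list was 269 to 1681 at 120 min, against 170 to 194 at 0 min. In flask 2 at 120 min *ivoB* alone held 1274. Of 4 genes of growing hyphae, *actA*, *benA*, *fksA* and *chsB*, edgeR called 0 at 120 min, with 1 gene under 0.05 before adjustment. DESeq2 called 1 of the 4 lower, beside 404 of all 8290 genes. Of these 4 genes, 3 were dynamic, beside 25.9% of all genes. Their summed normalized count was 32745 to 40349 at 120 min, against 44958 to 55758 at 0 min. The part of conidiation or of a change in growth in the values of AN8415, AN1032 and AN6000 was not tested.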

How the data were processed

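RNA-seq counts from 38 libraries (13 time points, 3 flasks) were analysed. Libraries were assigned to time points and flasks by their labels. Reads were single-end, and the authors aligned them with HISAT2 to the genome of FGSC A4 from Ensembl Fungi, counted them per gene with HTSeq-count and normalized them with DESeq2, and deposited the raw counts in 12 tables. Strand use and the annotation release were not given in the sources used here. Reads where genes overlap may therefore include those of the opposite strand. The tables also hold normalized values and the authors' own fold changes and p-values, and these comparison columns and 71 normalized per-sample columns were not used. The second 15 min library is labelled with another flask number than its column carries, and it was therefore tied to no flask. It counted for detection and was left out of the course test, which used 37 libraries.

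The members and lists were chosen with earlier results of these data known. Normalized counts are reads over median-of-ratios size factors. The later times 20, 60 and 120 min were each set against 0 min (3 flasks each) with edgeR 4.0.16 under R 4.3.3 (TMM, quasi-likelihood test, flask as a block, Benjamini-Hochberg adjustment over 8290 genes, threshold 0.05). The SE is the log2 fold change divided by the root of the test's F, and the SD is the spread of the flasks. The course test fitted log2 fold changes over a flask's own 0 min library with piecewise linear curves of up to 3 knots between 10 and 90 min (penalty 2 per knot), with 100 permutations, whose values were combined over all genes measured in the same libraries, and a threshold of 0.01, in Python 3.11.15 with numpy 2.4.6, pandas 2.3.3 and scipy 1.17.1. It stands in for the spline fits of the study. Samples of 1 flask are serial, so these p-values do not allow for drift within a flask. Values were permuted over the libraries of all flasks together, so the course p-values also do not measure the spread between flasks. With permutation within each flask, 8 of the 29 genes and 2877 of all genes were dynamic.

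Flask numbers pair the libraries, since a flask was sampled repeatedly. The correlation of deviations from the time point's mean at 0 and 120 min over all kept genes was -0.13, 0.15 and 0.25 in flasks 1, 2 and 3. Counts of libraries of 1 time point differed beyond counting error, at 37.8 to 112 chi-square units for each degree of freedom. On simulated counts for 120 against 0 min over 8290 genes, edgeR recovered 61 of 66 simulated 4-fold changes. It recovered 11 of 67 at 2-fold and 0 of 67 at 1.5-fold, and 7 of its 79 calls were genes left unchanged. The changes were placed only in genes above a minimum mean read count, and no difference between flasks was simulated. These rates therefore do not carry over to genes with few reads. In simulated courses over 3000 genes, the test called 18 of 100 genes given a 2 SD rise, 3 of 100 given 1 SD and 28 of 2800 left flat. These courses were real values shuffled over libraries, so the share of flat genes called was set by the threshold. Shuffling also removes drift within a flask, so this share is not the rate of false calls in the real courses.

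Genes were named if they were listed as backbone genes or cluster regulators, were called or dynamic, had the most or fewest reads of their cluster, or belonged to a comparison list and were called at 120 min. The other kept genes of the conidiation list are given as well. AN1033, AN8413, AN7914, AN2549 and AN2621 are given with test results although none of these criteria covers them. AN1035 and AN7898 were named after their values were seen. Gene names come from the study's supplements, and 70 of the 76 genes matched the RefSeq table, which was used for gene order. Alternatives were DESeq2 1.42.0, its size factors in edgeR, other filters, no block, each flask left out, all libraries in 1 fit, and other settings of the course test. Cluster sums add the normalized counts of all genes of a cluster.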

Additional observations from a re-analysis of the deposited data

How the results depend on the processing

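Of the alternatives for comparisons, 84 gave the same reading and 24 moved. The 84 include listed genes at 20 and 60 min, where the main test called 0 and most alternatives also called 0. They do not show that the 1 call at 120 min was firm: over the alternatives, 0 to 13 listed genes were called there. Of the alternatives for single genes, 241 gave the same reading, 29 passed the threshold newly, 13 lost it, and 1 turned. The value that turned was AN8414 at 120 min, whose log2 fold change ran from -0.98 without flask 3 to 0.23 without flask 1. The austinol sum, which moved by less than its SD, also changed sign, to -0.13 without flask 3. Most of the 2-fold changes placed in simulated counts were not called, and these were placed only in genes above a minimum read count.

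With no filter on low counts, 62 of the 76 genes were tested at 120 min. The 2 called were AN8415 and AN1035, beside 406 of all 9344 genes tested, and AN1035 is not among the 29 kept genes. Of these 29, DESeq2 called 5 at 120 min (AN1032, AN6000 and AN8415 higher, AN2545 and AN7895 lower). Leaving out a flask gave 0 to 3 of the 29 (0 without flask 1, 3 without flask 2, 0 without flask 3). All libraries in 1 fit, which treats serial samples as independent, called 13 at 120 min and 2 at 60 min. Over all genes, DESeq2 called 36, 335 and 1186 genes at 20, 60 and 120 min and the fit of all libraries 11, 750 and 2394. Leaving out a flask gave 0 to 115 genes at 60 min and 0 to 581 at 120 min.

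Without the flask block, that is without the pairing, 0 of the 29 genes and 247 of all genes (178 higher, 69 lower) were called at 120 min, and no call at 20 or 60 min changed.

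Of the 29 genes, 11 were dynamic with a penalty of 3 per knot, 4 to 7 with a flask left out and 2 (AN1032 and AN6000) with edgeR's F test over all times at an adjusted p under 0.01, which called 1172 of all genes. Over all genes, 2852 were dynamic with the penalty of 3 and 1555 to 1844 with a flask left out. With a filter of a normalized count of at least 10, 13 of the 76 genes were kept. As a median over kept genes instead of a sum, the log2 ratio at 120 min was -0.24 for orsellinic acid and 0.12 for aspyridone, where AN7913 and AN8415 hold most of the sums. The mean log2 ratios of the sums were -0.55 and 0.89 in that order.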

Other observations

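The 3 genes of the penicillin cluster, AN2621 to AN2623, had a median log2 fold change of -1.33 at 120 min, with 2 called lower and 0 higher, beside 1.21% of all genes called lower and 3.21% higher. AN2622 had 311, 70.0 and 239 normalized counts at 120 min in flasks 1, 2 and 3, against 644, 208 and 689 at 0 min, a log2 fold change of -1.37 (SE 0.17, adjusted p = 0.0312 by edgeR). AN2623 had 450, 200 and 391 at 120 min, against 1117, 407 and 1251 at 0 min, a log2 fold change of -1.33 (SE 0.17, adjusted p = 0.0323). Both were lower in every flask, and flask 2 held the lowest values at both times, so that the groups overlap. The adjusted p of AN2622 was 0.138 without flask 1, 0.0430 without flask 2, 0.140 without flask 3 and 0.249 without the flask block, and that of AN2623 was 0.151, 0.0294, 0.121 and 0.133 under the same changes. Without flask 1 or flask 3 no gene of the whole table was called. DESeq2, which called 1186 of all 8290 genes at 120 min, gave adjusted p of 1.98e-06 for AN2622 and 2.15e-06 for AN2623. AN2621 had 24.6, 11.7 and 14.6 normalized counts at 120 min, against 33.8, 7.90 and 28.9 at 0 min, with a log2 fold change of -0.34 (SE 0.40, adjusted p = 0.607).

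Of 22 genes from AN7804 to AN7825, the sterigmatocystin cluster, 13 were kept. At 120 min 0 were called by edgeR's quasi-likelihood test or by DESeq2. With either, 2 had an unadjusted p under 0.05, beside 26.5% of all genes with edgeR and 2115 of 8290 with DESeq2. Of the 13, 3 were dynamic, beside 25.9% of all genes. The median log2 fold change of the 13 was 0.18. The summed normalized count of the list was 382 to 428 at 120 min, against 176 to 323 at 0 min.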
